A study of Homo sapiens with 6 samples.

Results

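The antisense noncoding genes of H146 small-cell lung cancer (SCLC) cells were described together with the genes whose opposite strand they occupy. A member was a gene whose symbol is that of another gene followed by -AS1, -AS2 or -AS3, and members were selected on their own level, a mean raw count of at least 30 over the 6 libraries, with the named partner gene also listed. Of 28395 genes in the table, 199 were members, with 198 partner genes, since *TSPEAR* has 2 antisense genes. Another 981 antisense genes with a listed partner fell under the minimum. H146 (NCI-H146) is an established human SCLC line, and cells labelled WT had received negative control siRNA (3 libraries) or, as the KIFC1 knockdown, KIFC1 siRNA (siKIFC1, 3 libraries), all taken on day 2. KIFC1 is a kinesin motor that helps to cluster centrosomes, and the comparison asks which transcripts change when it is depleted. All 6 libraries came from 1 cell line and 1 siRNA against KIFC1 was sequenced, so a change shared by other KIFC1 siRNAs and a change made by this siRNA alone cannot be told apart.

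Natural antisense transcripts are long noncoding RNAs read from the strand opposite to another gene. Many start at the same promoter region as their partner and run the other way, while others start inside or beyond the partner and run back across it. They are often less abundant than the partner mRNA and are subject to early transcription termination and to decay by the nuclear RNA exosome, and some act in cis, on the partner or its neighbours.

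*KIFC1* itself was counted 14, 4 and 14 times across the control replicates and 1, 1 and 0 times across those with siKIFC1, with an adjusted p of 0.0739 in edgeR's quasi-likelihood test and 0.00459 with the replicate number as a block. Counts were low in the controls too, and *KIFC1* failed the low-count filter and was added to the test. This check of the labels therefore rests on few reads. The libraries held 15392374 to 17754458 counts each, of which the members took 0.163% in all. Of 10 neuroendocrine SCLC markers 9 passed the low-count filter, among them *INSM1*, a neuroendocrine transcription factor, at a mean of 705 CPM (counts per 1e6 counts, with TMM scaling). The median level of these 9 was 130 CPM, and the neuroendocrine marker that did not pass, *NEUROD1*, had at most 7 counts in any library. *POU2F3* and *YAP1*, which mark other SCLC subtypes, also had at most 7 counts in any library. Of the list of 4 other-subtype markers the 1 that was tested was at a mean of 3.56 CPM (32 to 92 counts). Of 7 non-tumor markers the fibroblast collagen gene *COL1A2* was the highest at a mean of 8.73 CPM (113 to 197 counts), followed by the endothelial gene *VWF* at 4.42, *COL1A1* at 2.89, the leukocyte gene *PTPRC* at 2.37 and *CD68* at 2.29, while *CD3E* and *PECAM1* had at most 7 counts in any library. Among the 9 neuroendocrine markers tested none passed an adjusted p of 0.05 without the block. Their median log2 fold change was 0.10, with a range of -0.42 to 2.00. Under the block 1 was higher and 1 lower (11.1% each), beside 2.75% and 3.07% of all genes. Groups did not overlap in 3 higher (33.3%) and 1 lower (11.1%), beside 7.99% and 7.52% of all genes. Among the 5 of 7 non-tumor markers tested none passed in either fit.

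All 199 members lay on the opposite strand from their partner, and the partner was protein-coding in 198 pairs and a long noncoding RNA in 1 (*ST20*). Each pair was placed by its arrangement on GRCh38. In 106 pairs the genes were divergent, in 46 convergent, and in 47 one gene lay within the other. The starts were within 1000 bp of each other in 78 pairs, and the median distance between starts was 3222 bp. Exons, from GENCODE, overlapped in 148 pairs, spans overlapped without shared exon bases in 27, and 18 pairs stood head to head with no overlap. The remaining 6 pairs were 4 whose antisense exons could not be matched and 2 with no overlap. Among the 193 members with matched exons the share of antisense exon bases that also lay in partner exons had a median of 4.36%, with quartiles of 0.695% and 16.2%, and it reached 50% in 8 members. No source used here states whether strand was used in counting, so reads from such shared bases cannot be assigned to one gene or the other. The same limit holds for antisense exons within partner introns, where reads from unspliced partner RNA could be counted.

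The start regions of the 4 members that passed a test in the fit with the replicate block are shown to set their promoters beside those of their partners, for DLX6-AS1 and STARD4-AS1 with the partner's own. Each window runs from 250 bases before the start to 50 after it, 5′ to 3′ on the gene's strand, from RefSeq on GRCh38.p14, with CG dinucleotides in capitals. HECW2-AS1 lies at chr2:196259774-196260073 (plus strand), DLX6-AS1 at chr7:97014016-97014315 (minus), HECTD2-AS1 at chr10:91611411-91611710 (minus), STARD4-AS1 at chr5:111511976-111512275 (plus), STARD4 at chr5:111512486-111512785 (minus) and DLX6 at chr7:97005303-97005602 (plus).
HECW2-AS1: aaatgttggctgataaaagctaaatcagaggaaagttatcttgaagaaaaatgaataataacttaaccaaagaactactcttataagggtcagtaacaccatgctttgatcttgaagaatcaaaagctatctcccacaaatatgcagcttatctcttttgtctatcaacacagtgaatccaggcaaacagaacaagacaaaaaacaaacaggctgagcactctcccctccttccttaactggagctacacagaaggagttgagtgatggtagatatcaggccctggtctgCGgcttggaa
DLX6-AS1: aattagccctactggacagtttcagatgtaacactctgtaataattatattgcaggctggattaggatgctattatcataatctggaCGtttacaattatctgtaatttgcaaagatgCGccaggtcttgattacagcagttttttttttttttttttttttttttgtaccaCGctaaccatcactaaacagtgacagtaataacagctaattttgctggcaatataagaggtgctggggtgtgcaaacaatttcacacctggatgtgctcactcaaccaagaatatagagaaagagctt
HECTD2-AS1: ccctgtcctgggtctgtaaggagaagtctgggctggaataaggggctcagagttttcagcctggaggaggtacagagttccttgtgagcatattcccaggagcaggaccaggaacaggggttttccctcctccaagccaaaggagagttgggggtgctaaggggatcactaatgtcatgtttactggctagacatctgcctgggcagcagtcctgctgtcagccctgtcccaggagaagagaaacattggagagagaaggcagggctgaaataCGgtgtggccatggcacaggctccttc
STARD4-AS1: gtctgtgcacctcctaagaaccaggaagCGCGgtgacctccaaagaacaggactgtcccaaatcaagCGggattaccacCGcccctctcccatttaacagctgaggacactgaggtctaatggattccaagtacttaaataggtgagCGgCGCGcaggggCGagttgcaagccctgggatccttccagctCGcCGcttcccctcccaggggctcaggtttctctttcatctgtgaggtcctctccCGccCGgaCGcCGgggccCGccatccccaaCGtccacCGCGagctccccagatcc
STARD4: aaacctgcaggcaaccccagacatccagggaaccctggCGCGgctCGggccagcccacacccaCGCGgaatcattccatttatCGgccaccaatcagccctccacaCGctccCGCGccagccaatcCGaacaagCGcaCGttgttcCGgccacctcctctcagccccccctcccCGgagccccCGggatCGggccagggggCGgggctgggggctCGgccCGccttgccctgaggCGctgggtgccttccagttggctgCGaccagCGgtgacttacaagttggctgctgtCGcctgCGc
DLX6: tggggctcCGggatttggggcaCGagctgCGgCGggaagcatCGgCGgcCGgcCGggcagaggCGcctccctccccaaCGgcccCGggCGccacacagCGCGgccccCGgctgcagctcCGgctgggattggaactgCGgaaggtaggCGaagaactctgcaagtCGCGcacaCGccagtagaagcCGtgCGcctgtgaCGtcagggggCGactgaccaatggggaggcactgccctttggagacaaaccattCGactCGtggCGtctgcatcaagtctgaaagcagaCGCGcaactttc

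The windows of HECW2-AS1, DLX6-AS1 and HECTD2-AS1 held 1, 3 and 1 CG dinucleotides, and that of STARD4-AS1 held 18. The partner windows held 24 for *STARD4*, 30 for *DLX6*, 31 for *HECW2* and 50 for *HECTD2*. The STARD4-AS1 start stood 309 bp from that of *STARD4*, whereas the other 3 antisense genes started 8512 to 333530 bp from their partner's start. A window was found for 162 of the 199 members. Their median GC content was 64.0%, with a median of 24 CG dinucleotides, beside 58.3% and 14 for all 27305 genes with a window and 65.5% and 26 for the partners. Members that started within 1000 bp of their partner had a median of 28 CG dinucleotides, and those in a pair with one gene inside the other had 15.5. The word TATAAA was in 3.70% of member windows and 11.95% of all windows, CCAAT in 31.5% and 35.7%, and GGGCGG in 59.9% and 44.6%, each searched on both strands. Members were kept by their count and the 27305 genes were not. Differences of antisense promoters therefore cannot be told apart from those of expressed genes. In 32 of the 150 pairs with both windows the windows themselves shared bases, a median of 189, so these promoters are not independent sequences.

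Most antisense genes were expressed below their partner. Levels were compared as mean CPM per kb of exon over the 6 libraries, since genes differ in length. Members ranged from 0.113 to 26.1 CPM per kb, and the median log2 ratio of antisense to partner was -1.80, with quartiles of -3.63 and 0.01, over the 193 pairs with matched exons. The antisense was the higher of the pair in 49 pairs, by over 4-fold in 14, and it was over 4-fold lower in 94. With the length of the canonical transcript in place of all exon bases the antisense was higher in 59 pairs, of which 43 were higher by both lengths. The median log2 ratio by canonical length was -1.36. The members were chosen by their own count, so these levels describe the pairs and are not tested.

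**Figure D1:**
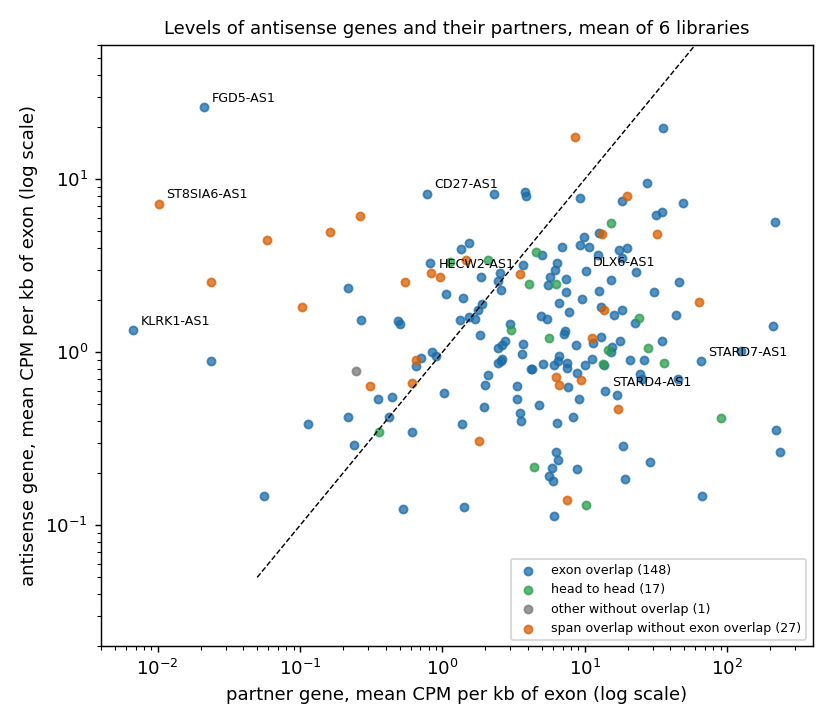
Mean CPM per kb of exon of each antisense gene (y axis, log scale) against its partner (x axis, log scale), 193 pairs, colored by how the pair overlaps; the dashed line marks equal levels. Most points lie below the line (median log2 ratio -1.80), while FGD5-AS1, ST8SIA6-AS1 and KLRK1-AS1 lie far above it beside partners near 0.

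Members had a count minimum and partners had none, so the largest excesses of antisense over partner lay beside partners near silent in H146. FGD5-AS1 was the most abundant member, with 2646, 2486 and 2979 counts in the controls and 2435, 2175 and 2812 with siKIFC1, or 26.1 CPM per kb. Its partner *FGD5*, a guanine nucleotide exchange factor known from endothelial cells, had 2, 4, 5, 2, 3 and 1 counts in the same order. ST8SIA6-AS1 was at 7.23 CPM per kb beside a mean of 1.17 counts for *ST8SIA6*, a sialyltransferase, and KLRK1-AS1 at 1.35 CPM per kb beside 0.333 counts for *KLRK1*, the natural killer cell receptor NKG2D. SDCBP2-AS1 and BBOX1-AS1 stood beside partners at means of 1.00 and 2.33 counts, the latter partner being an enzyme of carnitine synthesis. CD27-AS1, at 8.26 CPM per kb, accompanied *CD27*, a lymphocyte receptor of the TNF receptor family, at a mean of 17.0 counts. In all, 12 partners were too low to be tested, and 4 of these had 3 or fewer counts in every library.

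At the other end, PCBP1-AS1 was at 0.264 CPM per kb beside 236 for *PCBP1*, a poly(C)-binding protein, and ID2-AS1 at 0.356 beside 220 for *ID2*, an inhibitor of basic helix-loop-helix factors. Counts were concentrated in few members. The median of the mean counts was 72.5, 71 members reached 100, 8 reached 500, and the top 10 held 30.01% of all member counts. After FGD5-AS1 the highest mean counts were those of DLX6-AS1 (901), TENM3-AS1 (742) and OIP5-AS1 (601). Per kb of all exon bases the order was different, with PTOV1-AS2 at 19.7, EMC3-AS1 at 17.4 and PITPNA-AS1 at 9.57 after FGD5-AS1. This order depends on the length used. FGD5-AS1 has 6045 exon bases in all and 1184 in its canonical transcript, while EMC3-AS1 has 534 in both. PTOV1-AS2 and PITPNA-AS1 had 42.2% and 63.9% of their exon bases within exons of *PTOV1* and *PITPNA*, the latter a phosphatidylinositol transfer protein, and both partners were higher than they were, at 35.5 and 27.2 CPM per kb.

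The balance differed with arrangement. The median log2 ratio of antisense to partner was -2.56 in divergent pairs (103 with a level), -1.72 in convergent pairs (46) and -0.22 where one gene lay inside the other (44). Pairs whose starts were within 1000 bp had a median of -2.68, and those that overlapped only outside exons had 0.11. The median partner level was 6.56 CPM per kb in divergent pairs and 2.45 in nested pairs, beside antisense medians of 1.11 and 1.87. Both sides of the ratio therefore differed between the arrangements. In nested pairs and in those overlapping only outside exons, antisense exons can lie in partner introns. The limit from the unknown strand setting applies to their ratios too.

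**Figure D2:**
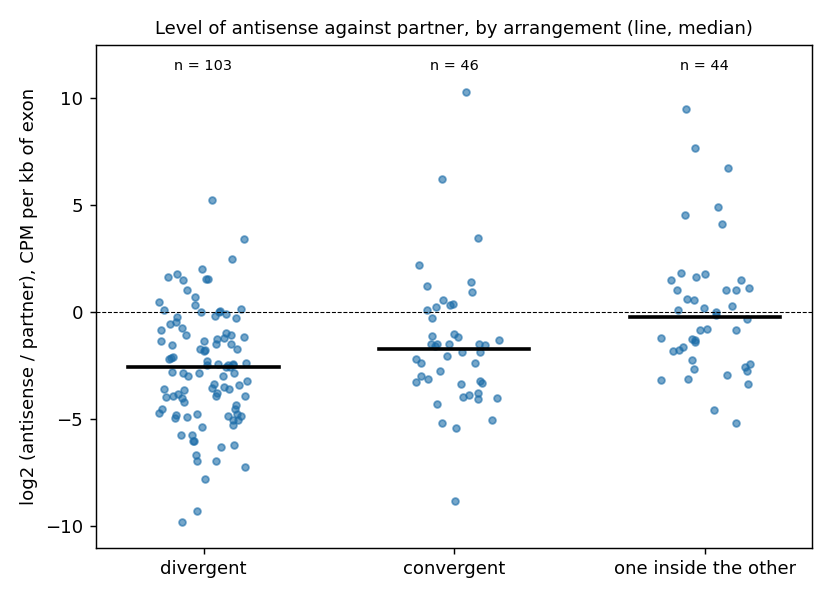
Log2 ratio of antisense to partner level (CPM per kb of exon, mean of 6 libraries) for divergent, convergent and nested pairs; each point is a pair and the bar is the median. The medians are -2.56, -1.72 and -0.22, and all 3 arrangements hold pairs on both sides of 0.

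Across the members, log2 fold changes after siKIFC1 were centred near 0. The median log2 fold change of the 199 antisense genes was 0.01 (quartiles -0.15 and 0.18, range -0.67 to 0.91), that of the 186 partners tested was 0.00 (quartiles -0.14 and 0.12), and that of all 14777 genes tested was 0.01 (quartiles -0.12 and 0.13). Values were positive for 102 members and negative for 97. In edgeR's quasi-likelihood test no member and no partner passed an adjusted p of 0.05 in either direction, beside 0.325% of all genes higher and 0.372% lower. At an unadjusted p under 0.05 there were 6 members higher and 4 lower, beside 4.72% and 4.55% of all genes, which is 3.02% and 2.01% of the members. For the partners these counts were 10 higher and 9 lower, or 5.38% and 4.84%. DESeq2's Wald test called 1 member (HECW2-AS1) and 2 partners (*MSC* and *RUNDC3A*) higher and none lower, and limma-voom called none of either. The share of all genes called by DESeq2 was not taken, so its calls have no background here.

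The siKIFC1 values lay wholly above the control values in 15 members and wholly below in 4, or 7.54% and 2.01%, beside 7.99% and 7.52% of all genes. For the partners this was 14 and 14, or 7.53% each. The median standard error was 0.22 for members and 0.13 for partners, so a change of a given size was harder to call in an antisense gene. Libraries with the same replicate number deviated together, and with the number as a block 2 members passed in each direction, or 1.01% each way, beside 2.75% of all genes higher and 3.07% lower. Of the partners 6 were higher and 7 lower in that fit, or 3.23% and 3.76%. These 4 members and 13 partners are described next by their values in every library.

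HECW2-AS1 had the highest log2 fold change of the members. It had 69, 49 and 44 counts in the controls and 96, 84 and 103 with siKIFC1, or 3.20 ± 0.88 and 5.99 ± 0.406 CPM (SD, n = 3 each). All siKIFC1 values lay above all control values. The log2 fold change was 0.91 (SE 0.23), with an adjusted p of 0.119, and 0.92 with an adjusted p of 0.00387 under the block, where it also passed with any one replicate pair left out. Over all alternatives its adjusted p ran from 0.00387 to 0.562. The gene lies at chr2:196260024-196264204 on the plus strand, inside *HECW2*, a HECT-type ubiquitin ligase read from the minus strand, and shares no exon bases with it. All its exon bases lie within the *HECW2* span. With the strand setting unknown, reads from *HECW2* introns cannot be told apart from its own.

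*HECW2* moved the other way in the same libraries. It had 328, 371 and 447 counts in the controls and 230, 196 and 383 with siKIFC1, and the groups overlapped at the third siKIFC1 library. Its log2 fold change was -0.40 (SE 0.20, adjusted p 0.599), and under the block -0.43 with an adjusted p of 0.0487, the range over alternatives being 7.61e-06 to 1. The log2 ratio of HECW2-AS1 to *HECW2* was higher by 1.37 with siKIFC1, without overlap between the groups. The exact permutation p was 0.10, the smallest that 3 against 3 libraries can give and the value of any ratio without overlap.

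DLX6-AS1, also known as Evf2, is a noncoding RNA of the *DLX5*/*DLX6* homeobox locus that is known from developing forebrain interneurons. It had 990, 908 and 1391 counts in the controls and 692, 464 and 960 with siKIFC1, or 64.0 ± 10.3 and 44.5 ± 14.1 CPM. Each siKIFC1 library lay below the control library of the same number, but the groups overlapped. The log2 fold change was -0.52 (SE 0.20, adjusted p 0.399), and -0.55 with an adjusted p of 0.000799 under the block. Over all alternatives the adjusted p ran from 1.88e-12 to 1. It passed without the block only when siKIFC1 replicate 3 was left out (log2 fold change -0.78, adjusted p 0.0339), and under the block it did not pass without replicate pair 2 (adjusted p 0.0687).

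The homeobox genes of the locus did not follow. *DLX6* had 587, 534 and 579 counts in the controls and 535, 607 and 595 with siKIFC1, a log2 fold change of 0.14 (SE 0.11, adjusted p 0.806). *DLX5*, its neighbour, chosen after its values were seen, was at 5398, 5026 and 5244 counts and then 5085, 4936 and 4214, a log2 fold change of -0.03 (SE 0.12, adjusted p 0.98). DLX6-AS1 shares 759 exon bases with *DLX6*, 4.11% of its own exon bases. The log2 ratio of DLX6-AS1 to *DLX6* was lower by 0.70 with siKIFC1 and did not overlap between the groups (exact permutation p = 0.10, as for any ratio without overlap).

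STARD4-AS1 starts 309 bp from *STARD4*, a cytosolic cholesterol transfer protein, and runs the other way. It had 77, 108 and 164 counts in the controls and 47, 71 and 84 with siKIFC1, and again each siKIFC1 library lay below its own control while the groups overlapped. The log2 fold change was -0.67 (SE 0.27, adjusted p 0.458), and -0.66 with an adjusted p of 0.0247 under the block, with a range of 0.0247 to 1 over alternatives. The block call was lost without replicate pair 1 (adjusted p 0.208) or 3 (0.0582). *STARD4* itself had 1312, 1290 and 1515 counts in the controls and 1120, 980 and 1540 with siKIFC1, a log2 fold change of -0.07 (SE 0.14, adjusted p 0.938). Under the block its adjusted p was 0.710, but without replicate pair 3 *STARD4* passed there as lower (log2 fold change -0.24, adjusted p 0.0132).

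HECTD2-AS1 lies antisense to *HECTD2*, another HECT-domain ubiquitin ligase gene, and its exons were not matched, so it has no level per kb. It had 44, 35 and 23 counts in the controls and 53, 52 and 64 with siKIFC1, without overlap. The log2 fold change was 0.82 (SE 0.28, adjusted p 0.316), and 0.85 with an adjusted p of 0.0394 under the block, with a range of 0.0366 to 0.909 over alternatives. The block call was lost without replicate pair 3 (log2 fold change 0.49, adjusted p 0.254). *HECTD2* had 886, 840 and 998 counts and then 769, 868 and 1123, a log2 fold change of 0.13 (SE 0.13, adjusted p 0.865).

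**Figure D3:**
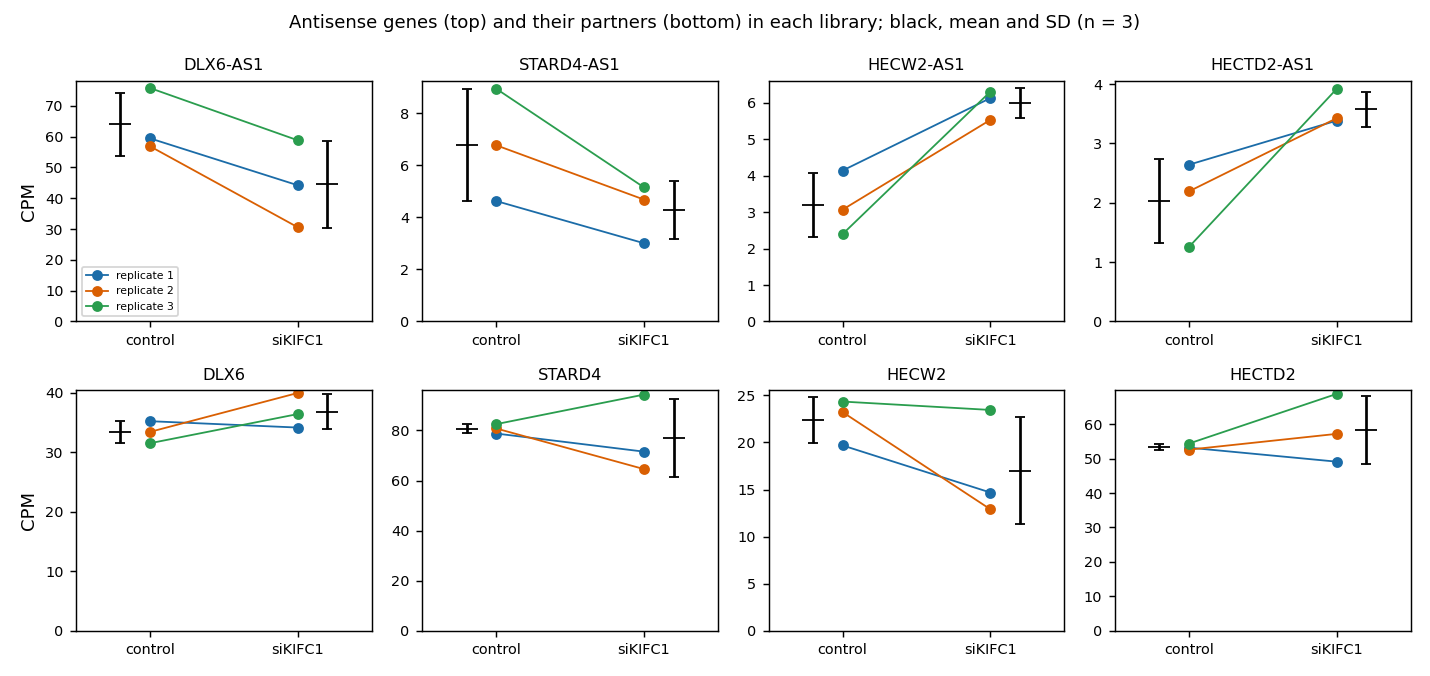
CPM of DLX6-AS1, STARD4-AS1, HECW2-AS1 and HECTD2-AS1 (top) and their partners (bottom) in each control and siKIFC1 library; lines join libraries with the same replicate number, and black bars are mean and SD (n = 3). DLX6-AS1 and STARD4-AS1 are lower and the other antisense genes higher in every joined pair, and *HECW2* is the only partner shown that is lower in all 3.

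Further members differed between the groups without passing an adjusted test in either fit. Among those higher without overlap, GPC5-AS1, beside the heparan sulfate proteoglycan gene *GPC5*, had 46, 26 and 46 counts and then 44, 56 and 60 (log2 fold change 0.56, SE 0.26, adjusted p 0.547). FEZF1-AS1, beside the forebrain transcription factor gene *FEZF1*, had 94, 80 and 123 counts and then 117, 127 and 139 (log2 fold change 0.49, SE 0.18, adjusted p 0.383), and *FEZF1* was at 0.24 (SE 0.20). NIFK-AS1 was at 0.40 (SE 0.15, adjusted p 0.382). The 4 members lower without overlap were LOXL1-AS1 (log2 fold change -0.51, SE 0.20), ZNF497-AS1 (-0.45, SE 0.21), ZNF667-AS1 (-0.39, SE 0.16) and TOB1-AS1 (-0.39, SE 0.25), with adjusted p from 0.436 to 0.733. Their partners, a lysyl oxidase, a pair of zinc finger genes and an antiproliferative protein, had log2 fold changes of -0.15, -0.15, -0.01 and 0.06.

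Of the 6 partners that were higher under the block, *RUNDC3A*, a RUN domain gene of neuronal and endocrine cells, had the lowest adjusted p. It had 1457, 1395 and 1366 counts in the controls and 1867, 2088 and 1720 with siKIFC1, without overlap. The log2 fold change was 0.54 (SE 0.12, adjusted p 0.0839), with an adjusted p of 0.000141 under the block and a range of 1.34e-12 to 0.461 over alternatives. RUNDC3A-AS1, which starts 170 bp away, had 89, 60 and 75 counts and then 79, 104 and 76, which overlapped (log2 fold change 0.33, SE 0.22, adjusted p 0.759).

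*MSC*, which encodes the repressor musculin, and *GATA2*, a zinc finger transcription factor, were also higher under the block. *MSC* had 255, 243 and 243 counts and then 345, 343 and 310 (log2 fold change 0.54, SE 0.13), with an adjusted p of 0.113, 0.00364 under the block and 0.000151 to 0.557 over alternatives. *GATA2* had 286, 223 and 247 counts and then 366, 340 and 301 (log2 fold change 0.53, SE 0.15), with an adjusted p of 0.181, 0.00483 under the block and 8.7e-05 to 0.722 over alternatives. The groups did not overlap in either gene, and neither antisense gene had a log2 fold change above 0. MSC-AS1 was at -0.14 (SE 0.15, adjusted p 0.872) and GATA2-AS1 at -0.09 (SE 0.17, adjusted p 0.938).

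*ARHGAP5*, a GTPase-activating protein, had 1009, 986 and 1261 counts and then 1383, 1096 and 1911 (log2 fold change 0.54, SE 0.16), with an adjusted p of 0.204, 0.00093 under the block and 8.9e-06 to 0.562 over alternatives. ARHGAP5-AS1, at 31 to 50 counts per library, had a log2 fold change of -0.05 (SE 0.25). *SH3BP5*, which encodes an SH3-domain binding protein, was at 0.51 (SE 0.15, adjusted p 0.198, 0.0204 under the block, 0.0204 to 0.677 over alternatives) while SH3BP5-AS1 was at -0.07 (SE 0.21). *NIFK*, whose nucleolar product binds the proliferation protein Ki-67, was at 0.35 (SE 0.11, adjusted p 0.251, 0.0206 under the block, 0.00728 to 0.848 over alternatives). NIFK and its antisense were the one pair of these 6 in which neither gene's groups overlapped and both were higher. NIFK-AS1 had 164, 170 and 166 counts and then 208, 213 and 192.

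Besides *HECW2*, 6 partners were lower under the block, and none of their antisense genes passed in either fit. *PDCD4*, an inhibitor of translation initiation, had 1445, 1160 and 1457 counts in the controls and 1028, 783 and 1034 with siKIFC1 (log2 fold change -0.40, SE 0.12), with an adjusted p of 0.239, 0.00507 under the block and 9.72e-08 to 0.679 over alternatives. PDCD4-AS1, head to head with it, was at 0.14 (SE 0.21). *VASH1*, a tubulin detyrosinating enzyme, had 351, 396 and 527 counts and then 288, 270 and 298 (log2 fold change -0.46, SE 0.14), with an adjusted p of 0.227, 0.0175 under the block and 0.0175 to 0.852 over alternatives. VASH1-AS1, with 37, 41 and 42 counts and then 44, 48 and 50, went the other way without overlap (log2 fold change 0.35, SE 0.22, adjusted p 0.719), and 56.6% of its exon bases lie in *VASH1* exons.

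*TIAM1*, an exchange factor for the GTPase RAC1, was at -0.42 (SE 0.18, adjusted p 0.478, 0.0105 under the block, 5.42e-05 to 1 over alternatives), and TIAM1-AS1 at -0.22 (SE 0.31). *PARD6G*, of the PAR polarity complex, was at -0.39 (SE 0.12, adjusted p 0.228, 0.0204 under the block, 0.0106 to 0.713 over alternatives), and PARD6G-AS1 at 0.13 (SE 0.21). *RAB11B*, a GTPase of recycling endosomes, was at -0.33 (SE 0.12, adjusted p 0.343, 0.0204 under the block, 0.00772 to 0.801 over alternatives), and RAB11B-AS1 at 0.13 (SE 0.29). *STARD7*, a phosphatidylcholine carrier, was at -0.25 (SE 0.10, adjusted p 0.458, 0.0403 under the block, 0.00159 to 0.863 over alternatives), and STARD7-AS1 at 0.08 (SE 0.20). The groups overlapped for *TIAM1* and for none of the other 3 partners.

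Across the 187 pairs with both genes tested, the estimated log2 fold changes of antisense and partner showed little correlation. Pearson's r over pairs was -0.036 and Spearman's coefficient -0.029, given as a description, since the pairs share the same 6 libraries. The median absolute log2 fold change was 0.161 in members (median SE 0.221) and 0.126 in partners (median SE 0.135). Typical changes were no larger than their standard error, so an r near 0 cannot tell whether the genes of a pair move together. The sign was the same in 96 pairs (49 both positive, 47 both negative) and opposite in 91. For pairs with exon overlap r was -0.014 (75 of 142 with the same sign), for head-to-head pairs -0.082 (8 of 18), and for pairs overlapping outside exons -0.171 (10 of 23). Pairs that started within 1000 bp of each other had an r of 0.072 (42 of 76). Where both genes had a mean count of at least 100, r was 0.021 (28 of 53). Of the 8 members with at least 50% of their exon bases in partner exons, 6 had the sign of their partner.

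**Figure D4:**
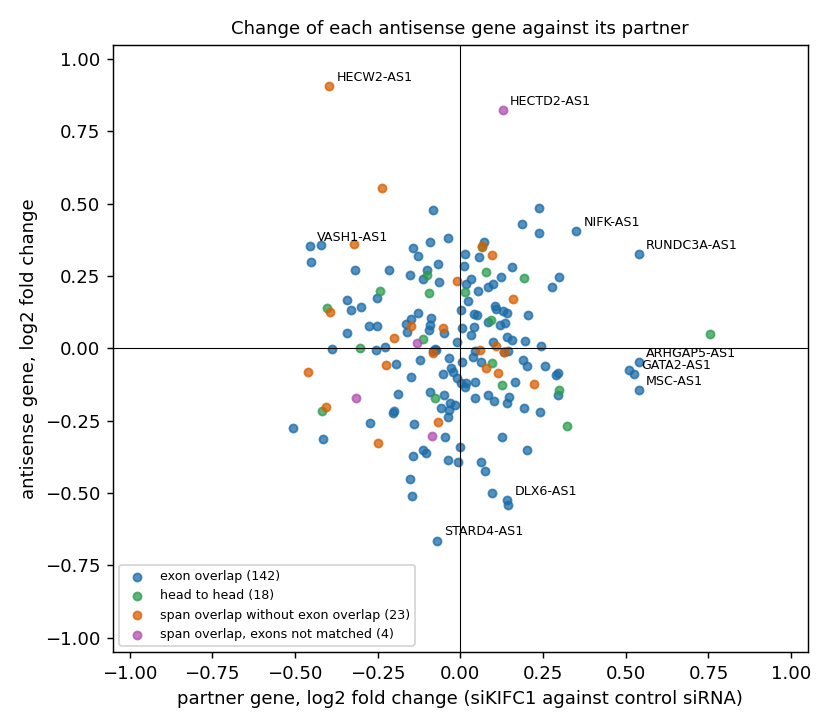
Log2 fold change (siKIFC1 against control siRNA) of each antisense gene (y axis) against its partner (x axis) for the 187 pairs with both tested, colored by how the pair overlaps. The points spread over all 4 quadrants (r = -0.036), with HECW2-AS1 and HECTD2-AS1 at the top and DLX6-AS1 and STARD4-AS1 at the bottom.

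The balance within a pair was also followed per library, as the log2 ratio of antisense to partner. It did not overlap between the groups in 34 of 199 pairs, higher with siKIFC1 in 22 (11.1%) and lower in 12 (6.03%). The 7.99% and 7.52% given above are for CPM of single genes that passed the low-count filter. A ratio is another measure, and the 199 pairs include partners too low to be tested. These shares are therefore not directly comparable. For each of the 34 the exact permutation p was 0.10, the smallest possible, which any ratio without overlap has. Among these 34 pairs, the largest rises in the ratio after HECW2-AS1 were NUTM2B-AS1 (0.86), LBX2-AS1 (0.85), VASH1-AS1 (0.79), HECTD2-AS1 (0.76) and C10orf95-AS1 (0.75). *NUTM2B*, *LBX2* and *C10orf95* are low, at means of 25.8, 10.2 and 25.8 counts, and NUTM2B belongs to a family of near-identical copies whose reads the counting could have split. The largest falls among the same 34 after DLX6-AS1 were those of MSC-AS1 (-0.67), GATA2-AS1 (-0.62), ZNF528-AS1 (-0.59) and ARHGAP5-AS1 (-0.54). In these 4 pairs it was the partner whose groups did not overlap, being higher with siKIFC1, and not the antisense.

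Besides DLX6-AS1, none of the members listed as antisense RNAs known from other work passed in either fit. OIP5-AS1, the conserved RNA that binds the microRNA miR-7, had 607, 604 and 643 counts and then 609, 489 and 652 (log2 fold change 0.02, SE 0.12), while *OIP5*, a centromere protein gene, was at 0.10 (SE 0.14). PSMA3-AS1 was at -0.01 (SE 0.12) and *PSMA3*, a proteasome subunit, at 0.13 (SE 0.11). THUMPD3-AS1 was at 0.21 (SE 0.16), EPB41L4A-AS1 at 0.20 (SE 0.18), TMPO-AS1 at 0.09 (SE 0.16), MAPKAPK5-AS1 at 0.09 (SE 0.12) and MCM3AP-AS1 at -0.36 (SE 0.22). Their adjusted p ran from 0.696 to 0.992, and for each the groups overlapped. The standard errors were 0.11 to 0.22 on the log2 scale. HECW2-AS1, at a log2 fold change of 0.91 (SE 0.23), did not pass without the block. Changes of several standard errors could therefore be missed in these genes.

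The genes that act on such transcripts were examined as lists. Of 26 genes of the nuclear exosome and its cofactors, all tested, 1 was lower and none higher at an adjusted p under 0.05, beside 0.372% and 0.325% of all genes, with a median log2 fold change of 0.02. The one was *TENT4B*, a poly(A) polymerase that tags RNA for the exosome, with 563, 543 and 640 counts and then 299, 266 and 334 (log2 fold change -0.85, SE 0.12, adjusted p 0.00703). Of 25 genes of early termination and 3-prime processing, 1 was higher, *INTS14* of the Integrator complex, with 522, 478 and 554 counts and then 803, 813 and 832 (log2 fold change 0.77, SE 0.10, adjusted p 0.00703), and the median was -0.01. Of 9 tested genes of double-stranded RNA binding and editing none passed, with a median of 0.00. Under the block *EXOSC6* (0.37, adjusted p 0.0434) and *SON* (0.60, 1.74e-05) were also higher and *INTS2* (-0.44, 0.00447) lower, beside 2.75% of all genes higher and 3.07% lower in that fit. The part of these genes in the antisense levels was not tested.

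Members just inside the count minimum were PENK-AS1, ZNF32-AS2 and USP3-AS1 at means of 30.7, 30.2 and 30 counts, and TRHDE-AS1, ZNF22-AS1 and TMEM254-AS1 fell just outside at 29.7, 29.5 and 29.2. Of the 981 antisense genes under the minimum 148 passed the low-count filter, with a median log2 fold change of -0.09 and a median standard error of 0.37. None passed an adjusted p of 0.05, and 2 were lower under the block (1.35%, beside 3.07% of all genes). One of these was KIZ-AS1, antisense to the centrosomal gene *KIZ*, with a mean of 21.7 counts, a log2 fold change of -1.20 (SE 0.38, adjusted p 0.257) and -1.19 under the block (adjusted p 0.0269). *KIZ* was at -0.03 (SE 0.11, adjusted p 0.971), with 481 to 590 counts in every library.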

How the data were processed

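RNA was sequenced from 6 H146 cultures, labelled as biological replicates 1 to 3 of each group. Per the submitters' processing notes, the authors used HISAT2 2.2.1 on GRCh38, featureCounts 2.0.8, DESeq2 1.46.0 and R 4.4.2, and they deposited raw counts per NCBI gene ID. The annotation release and strand setting are not given in the sources used here. Of 28395 IDs, 27745 were matched to a symbol in the RefSeq table for GRCh38.p14, and the other 650 held 0.062% of the counts. Spans and strands were from RefSeq and exons from GENCODE, so a pair can share exon bases where RefSeq spans do not meet.

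The whole table entered edgeR 4.0.16 (R 4.3.3), with the robust quasi-likelihood test, TMM scaling after filterByExpr, and p-values were adjusted by Benjamini-Hochberg across 14777 genes at a threshold of 0.05. The standard error is the absolute log2 fold change over the square root of F. Fits were tested on simulated data. Ratios per library added 0.5 counts. Genes that failed filterByExpr were given no fold change, except *KIFC1*, which was added to the 14776 genes that passed. A gene at 3 or fewer counts in every library of both groups was marked as at the floor, which covers counting error only.

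Replicate numbers were taken as pairs: over 12947 genes, deviations from the group mean correlated at 0.427, 0.340 and 0.418 between same-numbered libraries and at -0.373 to -0.0330 between the others. Alternatives were DESeq2 1.42.0, limma-voom (limma 3.58.1), other size factors and filters, the block, and leaving out each library.

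Named pairs were those with either gene past the threshold in either fit, the 10 highest antisense levels per kb, the 5 largest rises and falls without overlap, the 5 largest differences each way between antisense and partner, and antisense RNAs known from other work. The members, the lists (neuroendocrine, other-subtype and non-tumor markers, nuclear exosome, early termination, double-stranded RNA) and the rule were chosen with earlier results of these data known. Of 4 other-subtype markers 1 was tested and it did not pass. Of 12 names on the double-stranded RNA list 11 were in the table and 9 tested.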

Additional observations from a re-analysis of the deposited data

How the results depend on the processing

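No member or partner passed the adjusted threshold in edgeR with other size factors, library size only, a filter of at least 10 counts throughout, limma-voom, or members of at least 100 counts. With DESeq2's Wald test 1 member (HECW2-AS1) and 2 partners (*MSC*, *RUNDC3A*) were higher, and with no filter on low counts 1 member (HECW2-AS1) and 2 partners (*RUNDC3A*, *ARHGAP5*). The shares of all genes called by DESeq2 and without the filter were not taken. With the replicate block 2 members were higher and 2 lower, and 6 partners were higher and 7 lower, and the block changed no other call among the members and partners. Over fits that left out 1 library, or 1 replicate pair under the block (chosen after seeing the data), members higher ran from 0 to 8, members lower from 0 to 1, partners higher from 0 to 14 and partners lower from 0 to 16. The highest counts came without replicate pair 3. The shares of all genes called in these left-out fits were not taken. These counts therefore cannot be read as particular to members or partners. Of the single libraries, siKIFC1 replicate 3 alone changed the counts when left out, to 1 member lower (DLX6-AS1), 3 partners higher (*MSC*, *GATA2*, *RUNDC3A*) and 2 lower (*HECW2*, *ASH1L*). The partner median was -0.060 in pairs without exon overlap, where 17 pairs had the same sign, and 34 pairs did among members of at least 100 counts. The number of pairs with a ratio that did not overlap was 34 with 2 added counts too. The cause was not tested.

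Of 1294 log2 fold changes of the 81 named genes under alternatives, 1145 kept their sign and side of the threshold, 61 passed it and 88 changed sign, none of them called. *CD27* was at -0.000115 with DESeq2 size factors, -0.015 with library size only, -0.065 in limma-voom, -0.00474 with no filter and -0.00912 with the block, and *ZNF667* at 0.00554 in limma-voom and 0.00273 with the block. With libraries or pairs left out the ranges on the log2 scale were FGD5-AS1 -0.090 to 0.039, OIP5-AS1 -0.070 to 0.14, OIP5 -0.018 to 0.22, PSMA3-AS1 -0.15 to 0.054, CD27-AS1 -0.26 to 0.078, CD27 -0.29 to 0.33, MAPKAPK5-AS1 -0.00306 to 0.17, PTOV1-AS2 -0.28 to 0.079, PTOV1 -0.21 to 0.011, EPB41L4A-AS1 -0.00153 to 0.38, EPB41L4A -0.044 to 0.19, THUMPD3 -0.00412 to 0.16, NUTM2B -0.79 to 0.048, ZNF667 -0.19 to 0.14, MELTF-AS1 -0.34 to 0.012, MELTF -0.031 to 0.20, GATA2-AS1 -0.23 to 0.013, EMC3-AS1 -0.22 to 0.13, EMC3 -0.011 to 0.12, TMPO -0.00472 to 0.16, TTC39C-AS1 -0.086 to 0.32, SH3BP5-AS1 -0.30 to 0.059, MCF2L -0.13 to 0.068, PITPNA-AS1 -0.17 to 0.12, STARD4 -0.25 to 0.034, LOXL1 -0.30 to 0.037, PDCD4-AS1 -0.023 to 0.27, STARD7-AS1 -0.025 to 0.15, PARD6G-AS1 -0.032 to 0.22, GPC5 -0.51 to 0.17, HECTD2 -0.00738 to 0.24, TOB1 -0.10 to 0.19, ARHGAP5-AS1 -0.18 to 0.14, TIAM1-AS1 -0.54 to 0.057, RAB11B-AS1 -0.044 to 0.37. Depth was lower for the members, whose median mean level was 4.38 CPM, than for the partners, at 38.4. With 3 libraries a group, changes of several standard errors could be missed without the block, as for HECW2-AS1 at 0.91 (SE 0.23). Of the 193 members with matched exons, UGDH-AS1 alone had over 50% of its 32-base words on alternate sequences of the assembly, where reads can map more than once.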
